A study of Mus musculus with 19 samples.

Results

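The 5 genes Slc1a1 to Slc1a5 encode membrane transporters of the SLC1 family and were followed through whole mouse vomeronasal organs (VNOs) after loss of Smad4 in vomeronasal sensory neurons (VSNs). They were taken by name from the 35596 genes of the deposited files. Slc1a2 was chosen for its higher level in the conditional knockouts (cKO) of both Cre lines, so its values in those comparisons are given as a description without a test. Each of the 5 passed the filter on low counts in every fit. By counts summed over its transcripts Slc1a2 was 1.77-fold higher in the AP-2εCre cKO than in controls and 2.05-fold higher in the OMPCre cKO. By the same counts Slc1a1 and Slc1a5 had lower means in the AP-2εCre cKO, and Slc1a3 and Slc1a4 lay close to their control levels in both lines.

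Whole VNOs from mice labelled female at postnatal day 21 gave 18 polyA+ mRNA-seq libraries in 6 groups of 3. In each line the cKO carried Cre+/- and floxed Smad4 alleles (AP2eCre +/- SMAD4 Flox or OMPCre +/- SMAD4 Flox in the labels), and the heterozygotes carried AP2eCre +/- or OMPCre +/- alone. The remaining control group of each line is labelled Wild Type, whereas the series design and the study's methods name Smad4flox/flox mice as the controls without Cre. It is called WT-labelled here. AP-2εCre is a knock-in at Tfap2e that is active from the immature basal VSNs onwards, and OMPCre is a knock-in at Omp that is active in mature apical and basal VSNs. The labels give these neurons as the cell type, but the RNA came from the whole organ, which also holds supporting cells, glands, vessels, glia and blood. In such bulk samples fewer cells of a type and less RNA per cell cannot be told apart. Nothing in the labels says whether each library came from 1 animal or from pooled animals, so p-values measure the spread between these libraries.

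Total estimated counts per library ranged from 43385516 to 134042284, with a median of 63096714 over 18 libraries. Levels are given as CPM, counts scaled to 1000000 per library, after normalization of library sizes. The labels were checked on 3 genes. Tfap2e, which loses 1 copy to its knock-in, had 5.44 to 8.88 CPM in the AP-2εCre heterozygotes and 10.0 to 12.5 CPM in the AP-2εCre cKO, against 14.01 to 16.6 CPM in the WT-labelled libraries of that line. Omp, the site of the other knock-in, had 225 to 248 CPM in the OMPCre heterozygotes and 238 to 287 CPM in the OMPCre cKO, against 305 to 474 CPM in the WT-labelled libraries. Smad4 transcripts of the whole organ had 33.8 to 66.5 CPM in the AP-2εCre cKO against 39.6 to 81.0 CPM in its 6 controls, which overlapped. The OMPCre libraries had 54.4 to 62.5 CPM of Smad4 in the cKO and 64.8 to 83.9 CPM in the controls, which did not overlap.

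Transporters of this family fall into 2 kinds. Slc1a1 (the neuronal transporter EAAC1), Slc1a2 (GLT1, the main astroglial transporter of the forebrain) and Slc1a3 (GLAST, found in astrocytes and other glia) take up glutamate and aspartate against their gradients by coupling to sodium, which clears released glutamate. Slc1a4 (ASCT1) and Slc1a5 (ASCT2) exchange neutral amino acids such as serine, alanine and glutamine across the membrane, so the name glutamate transporter does not hold for these members. VSNs release glutamate onto cells of the accessory olfactory bulb, outside the organ sampled here. The other glutamate transporters of the family, Slc1a6 and Slc1a7, were at the edge of detection, with 0 to 31 estimated counts per library for Slc1a6 and 0 to 13 for Slc1a7.

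The genes lie apart in the genome (GRCm38, GENCODE vM21). Slc1a1 (ENSMUSG00000024935.11) spans chr19:28835049-28913960 on the plus strand, Slc1a2 (ENSMUSG00000005089.15) chr2:102658659-102790784 on the plus strand, Slc1a3 (ENSMUSG00000005360.14) chr15:8634124-8710764 on the minus strand, Slc1a4 (ENSMUSG00000020142.12) chr11:20302180-20332713 on the minus strand and Slc1a5 (ENSMUSG00000001918.17) chr7:16781340-16798274 on the plus strand. Slc1a1 overlaps 2 annotated genes on the opposite strand, 4430402I18Rik and Gm5822. The libraries were stranded, but whether the authors' quantification used the strand is not given in the sources used here. The members do not share sequence that could mix their reads. None of their 31-base words occurs in another member, and 0.411% of those of Slc1a2 occur in transcripts of other genes, against 0.11% for Slc1a1, 1.32% for Slc1a3 and 0 for Slc1a4 and Slc1a5.

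Slc1a2 has 12 annotated transcripts, 7 of them protein coding, and their coding ends decide which form of GLT1 a transcript can make. Transcripts Slc1a2-202 and Slc1a2-204 begin their coding sequence in an upstream exon, whereas Slc1a2-201 and Slc1a2-203 start transcription 47779 bases downstream of the first base of Slc1a2-202 and begin it in another. The first 45 coding bases are shown, because these alternative first exons are the only part of the start that differs. Capitals mark the bases of the first coding exon, chr2:102659285-102659301 for Slc1a2-202 and chr2:102706476-102706483 for Slc1a2-201, and the lower-case bases belong to the shared exon that follows.
Slc1a2-202: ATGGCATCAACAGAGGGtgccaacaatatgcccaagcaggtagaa
Slc1a2-201: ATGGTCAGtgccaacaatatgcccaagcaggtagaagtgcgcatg

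The coding sequence also has alternative ends. Slc1a2-202 and Slc1a2-203 end in the last exon of the gene, with 69 coding bases there (chr2:102781463-102781531), and Slc1a2-201 and Slc1a2-204 end within the exon before it (chr2:102777427-102777691). The last 45 coding bases before the stop codon are all from the final coding exon and are therefore in capitals.
Slc1a2-202: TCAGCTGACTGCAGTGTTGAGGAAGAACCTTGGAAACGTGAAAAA
Slc1a2-201: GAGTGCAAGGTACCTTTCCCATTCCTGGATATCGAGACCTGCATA

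Slc1a2-202 carried most of the reads. It held 84.6% to 97.5% of the estimated counts of Slc1a2 in the 18 libraries, with a median of 90.8%. The 2 transcripts with the upstream coding start held 85.8% to 100% of counts, and the 3 with the downstream start (Slc1a2-201, Slc1a2-203 and Slc1a2-205) held 0 to 48.8 counts per library. The ending of Slc1a2-201 and Slc1a2-204 was given 0 to 47.7 counts, under 1 count in 4 libraries. These assignments rest on few bases, since Slc1a2-202 is 11595 bases long, its coding part makes up 14.8% of it and its last exon 80.4%, while Slc1a2-201 is 2127 bases long. Most positions that a Slc1a2 read can come from are thus in the long last exon that Slc1a2-202 alone holds in full, and the estimates do not measure the coding ends one by one.

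In the AP-2εCre line Slc1a2 had 4.93, 4.42 and 5.41 CPM in the WT-labelled libraries. It had 5.68, 5.52 and 4.17 CPM in the heterozygotes. The cKO libraries had 7.67, 8.89 and 10.1 CPM. All 3 cKO libraries lay above all 6 controls, with a mean of 8.88 CPM against 5.02 CPM. On the log2 scale the fold change was 0.83 (SE 0.14), and it ranged from 0.73 to 0.92 when each library was left out in turn.

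In the OMPCre line the WT-labelled libraries had 6.11, 5.08 and 3.22 CPM of Slc1a2. The heterozygotes had 7.20, 5.68 and 5.67 CPM. The cKO libraries had 9.45, 7.70 and 16.7 CPM. Here too all 3 cKO libraries lay above all 6 controls, but by little at the border, 7.70 CPM against 7.20 CPM, and 1 cKO library stood well above the others. In the AP-2εCre and OMPCre cKO comparisons 2.21% and 1.41% of all genes tested had this order. The log2 fold change was 1.04 (SE 0.27) and 0.64 without that cKO library, replicate 3. Between the lines the cKO effects differed by -0.23 (log2, SE 0.33, AP-2εCre minus OMPCre), and this difference was 0.17 without the same library. In both lines together 32 of 18137 genes tested in both, 0.176%, had all cKO libraries above all controls of their line. Slc1a2 was chosen for this pattern, so the share is given for scale only.

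**Figure D1:**
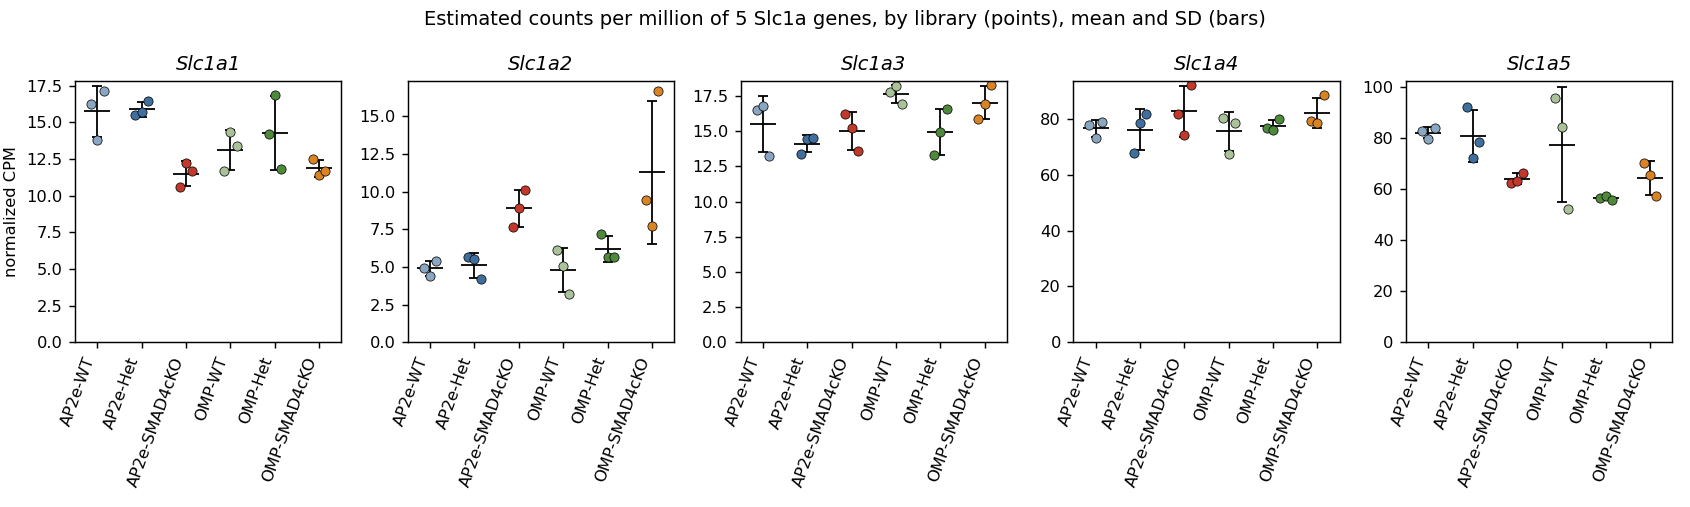
Normalized CPM (vertical axis, from 0) of each Slc1a gene in the 6 groups of 3 libraries, with points for libraries and bars for mean and SD; AP2e and OMP name the Cre line, WT the WT-labelled controls and Het the heterozygotes. Slc1a2 lies at 7.67 to 10.1 CPM in the AP-2εCre cKO against 4.17 to 5.68 CPM in its controls, and Slc1a4 lies at 67.5 to 92.4 CPM in all groups.

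The result for Slc1a2 depended on how its transcripts were added. On the TPM scale, which divides by transcript length, Slc1a2-202 had 0.561 to 0.784 TPM in the AP-2εCre cKO and 0.263 to 0.382 TPM in the controls, which did not overlap. With OMPCre it had 0.442 to 1.34 TPM in the cKO and 0.281 to 0.480 TPM in the controls, which did. TPM added over all transcripts of the gene ranged from 0.350 to 12.8 among the 18 libraries, and cKO and controls overlapped in both lines. The 5 non-coding transcripts of 193 to 342 bases received at most 22 counts per library, at most 3.62% of the gene's counts, yet up to 89.4% of its TPM. Counts rebuilt from length-scaled TPM gave log2 fold changes for the cKO of 0.44 (AP-2εCre) and 2.05 (OMPCre).

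**Figure D2:**
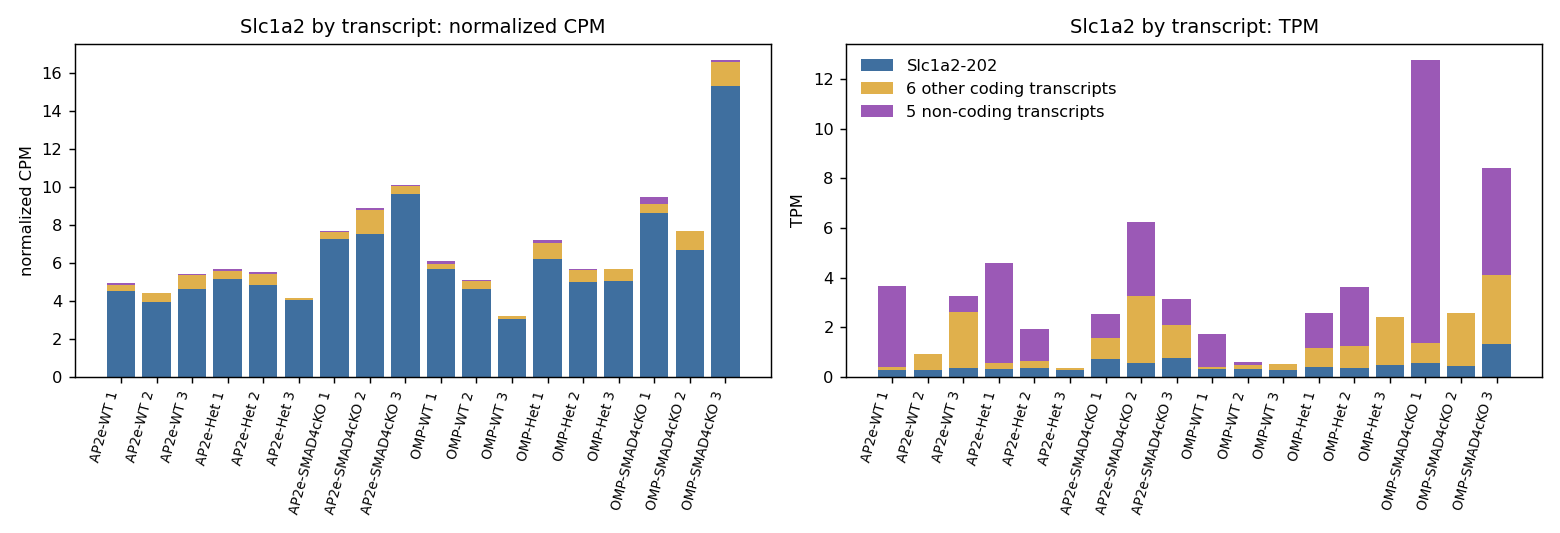
Slc1a2 in each of the 18 libraries as normalized CPM (left) and as TPM (right), stacked by Slc1a2-202, the 6 other coding and the 5 non-coding transcripts; AP2e and OMP name the Cre line. Slc1a2-202 fills 84.6% to 97.5% of the counts, while the non-coding transcripts reach 89.4% of the TPM in OMP-SMAD4cKO library 1.

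In a comparison that the choice of the gene did not use, heterozygotes against WT-labelled controls, Slc1a2 was not called. Its log2 fold change was 0.06 (SE 0.18) in the AP-2εCre line and 0.35 (SE 0.32) in the OMPCre line, with adjusted p = 1 and 0.945 (edgeR's quasi-likelihood test, Benjamini-Hochberg over all genes tested). The OMPCre means were 6.18 CPM in heterozygotes and 4.80 CPM in WT-labelled libraries, with overlapping groups. Leaving out OMP-WT replicate 1 gave 0.57 and leaving out OMP-WT replicate 3 gave 0.15, and counts from length-scaled TPM gave 1.31 there.

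Slc1a1, the glutamate transporter of neurons, had 16.2, 13.8 and 17.2 CPM in the WT-labelled libraries of the AP-2εCre line. The heterozygotes had 15.5, 15.7 and 16.5 CPM. The cKO libraries had 10.6, 12.3 and 11.6 CPM. Every cKO library lay below every control, by a log2 difference of -0.46 (SE 0.10), and 2.85% of the 18495 genes tested had their cKO libraries all below their controls. The exact permutation test over the 84 splits gave p = 0.0238, the smallest this two-sided test can give. By edgeR's quasi-likelihood test the unadjusted p was 0.00072 and the adjusted p 0.249, so Slc1a1 was not called, whereas DESeq2 gave an adjusted p of 0.0062. The adjusted p was 0.132 to 0.734 when single libraries were left out of the edgeR fit. The separation held for counts summed over transcripts but not by TPM, where the cKO libraries had 3.37 to 3.43 TPM and the controls 3.07 to 5.59 TPM, and Slc1a1-201, the only coding transcript, had 2.58 to 3.35 TPM against 2.63 to 3.46 TPM.

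Markers of neurons were not lower as a list in that cKO. Those of mature VSNs summed to 1278 to 1438 CPM against 1001 to 1313 CPM in controls, with 3 of 5 higher, and Ano1, a chloride channel of VSNs, was called lower by DESeq2 (adjusted p = 0.0451) but not by edgeR (0.317). DESeq2 called 1.67% of all genes tested. This sum mixes apical and basal VSNs. Gnao1, of basal VSNs, had 190 against 197 CPM (log2 fold change -0.05, SE 0.16). Gnai2, of apical VSNs, had 444 against 366 CPM (0.28, SE 0.10), and neither was called. Those of immature neurons summed to 363 to 452 CPM against 273 to 377 CPM, with 5 of 5 higher and none called. Their part in the level of Slc1a1 was not tested.

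In the OMPCre line Slc1a1 had 11.6 to 14.3 CPM in the WT-labelled libraries, 11.8 to 16.8 CPM in the heterozygotes and 11.4 to 12.5 CPM in the cKO. These groups overlapped, with a log2 fold change of -0.21 (SE 0.12) and an adjusted p of 1.00 by edgeR (exact permutation p = 0.143). The cKO effects of the lines on Slc1a1 differed by -0.25 (log2, SE 0.16), which did not pass the test of the difference (adjusted p = 1.00, edgeR). Slc1a1-201 held 71.7% to 100% of the gene's counts. The remainder went mostly to Slc1a1-205, a transcript with a retained intron, at 0 to 234 counts per library.

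Slc1a3, the GLAST glutamate transporter, had 13.2 to 16.8 CPM in the AP-2εCre controls and 13.6 to 16.2 CPM in the cKO, with a log2 fold change of 0.02 (SE 0.11). In the OMPCre line it had 13.3 to 18.2 CPM in controls and 15.9 to 18.3 CPM in the cKO, with 0.06 (SE 0.11). Neither passed (adjusted p = 0.972 and 1.00, edgeR), and both values changed sign with the WT-labelled controls alone, to -0.05 and -0.06. The largest difference of Slc1a3 was among the OMPCre controls, where the heterozygotes had 13.3, 15.0 and 16.6 CPM and the WT-labelled libraries 17.8, 18.2 and 16.9 CPM. All heterozygotes lay below all WT-labelled libraries, as did 5.02% of the genes tested, and the test gave a log2 fold change of -0.25 (SE 0.10) with an adjusted p of 0.833 by edgeR (exact permutation p = 0.1, the smallest possible with 3 against 3). Slc1a3-201 held 83.1% to 96.7% of the gene's counts.

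Because Slc1a2 and Slc1a3 are known from astroglia, markers of glia were read beside them. The 6 astrocyte markers (Gfap, Aqp4, Aldh1l1, Gja1, Aldoc and Gjb6) summed to 711 to 804 CPM in the AP-2εCre cKO and 721 to 848 CPM in its controls, and to 742 to 791 CPM against 737 to 819 CPM in the OMPCre line, with overlap in both. Most of this sum was Aqp4, at 512 to 697 CPM, which is also expressed outside astrocytes, while Gfap had 2.29 to 5.94 CPM. The 8 markers of ensheathing glia and Schwann cells summed to 161 to 178 CPM in the AP-2εCre cKO against 163 to 227 CPM in controls. With OMPCre these glial markers summed to 170.8 to 189.7 CPM in the cKO and 189.9 to 231.6 CPM in controls, which almost touched. Of the 8 markers 2 were higher and 6 lower in the OMPCre cKO, and none was called by edgeR or DESeq2. By edgeR 1 of them was lower at an unadjusted p under 0.05, against 3.95% of all genes tested in either direction. Of the 4 oligodendrocyte markers Opalin was at 0 in 18 of 18 libraries and Mog at or below 0.177 CPM, while Mag had 1.63 to 3.21 CPM and Olig1 0.433 to 1.61 CPM. In the AP-2εCre line 4 immune markers summed to 175 to 186 CPM in the cKO, above the 138 to 163 CPM of all controls, and 4 proliferation markers to 169 to 200 CPM against 92.6 to 184 CPM. In the OMPCre cKO the immune sum overlapped, at 148 to 160 CPM against 128 to 177 CPM, and the proliferation sum was mostly lower, at 72.4 to 111 CPM against 107 to 165 CPM, with a narrow overlap. Of the 4 proliferation markers 4 were higher in the AP-2εCre cKO, 2 of them at an unadjusted p under 0.05 by edgeR against 10.2% of all genes tested, and 4 were lower in the OMPCre cKO, 3 of them at such a p against 3.95%. Their part in the level of Slc1a2 was not tested.

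Slc1a4, which exchanges serine and alanine, had similar levels in all groups. It had 67.8 to 81.9 CPM in the AP-2εCre controls and 74.2 to 92.4 CPM in the cKO, and 67.5 to 80.4 CPM against 78.8 to 88.5 CPM in the OMPCre line. The log2 fold changes were 0.12 (SE 0.09) and 0.10 (SE 0.07), and neither passed (adjusted p = 0.714 and 1.00, edgeR). Over the 12 controls and by CPM its SD was 6.14% of its mean CPM, against 12.7% for Slc1a1, 19.3% for Slc1a2, 11.6% for Slc1a3 and 20.5% for Slc1a5. Slc1a4-201 held 83.9% to 100% of its counts.

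Slc1a5, the glutamine exchanger, had 82.6, 79.7 and 83.7 CPM in the WT-labelled libraries of the AP-2εCre line. The heterozygotes had 92.1, 72.0 and 78.5 CPM. The cKO libraries had 62.4, 63.3 and 66.4 CPM. Every cKO library lay below every control, as for 2.85% of the 18495 genes tested, with a log2 fold change of -0.34 (SE 0.08). The exact permutation p was 0.0238, again the smallest this test can give. The adjusted p was 0.269 by edgeR's quasi-likelihood test and 0.0134 by DESeq2. As for Slc1a1, the separation held for summed counts and not by TPM, with 45.8 to 62.9 TPM in the cKO and 58.1 to 86.7 TPM in controls, and with 5.60 to 16.2 TPM against 8.67 to 16.1 TPM for the coding transcript Slc1a5-201. Thus none of the 4 members tested in this contrast was called by edgeR, which called 7 of 18495 genes, 0.0378%, and 2 of the 4 were called by DESeq2, which called 309, 1.67%. In the OMPCre cKO comparison edgeR called none of the 4 members and 0 of 18623 genes, 0%, with 735 (3.95%) at an unadjusted p under 0.05, and DESeq2 called 42 genes, 0.226%, and none of the 4.

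In the OMPCre line Slc1a5 was uneven among the WT-labelled libraries, at 95.7, 84.3 and 52.2 CPM. The heterozygotes had 56.3, 57.2 and 55.7 CPM. The cKO libraries had 70.2, 65.6 and 57.2 CPM, within the range of the controls. The log2 fold change of the cKO was -0.06 (SE 0.21, adjusted p = 1.00 by edgeR). It was 0.07 without OMP-WT replicate 1, 0.02 without OMP-WT replicate 2 and 0.02 without OMP-SMAD4cKO replicate 3, so no direction can be given. Heterozygotes had a lower mean than WT-labelled libraries, with a log2 fold change of -0.47 (SE 0.19), overlap and an adjusted p of 0.833 by edgeR (exact permutation p = 0.4). This value was -0.28 without OMP-WT replicate 1. Of the 5 members none was called between these controls in either line, where edgeR called 9 of 18495 genes, 0.0487%, in the AP-2εCre line and 14 of 18623, 0.0752%, in the OMPCre line. The cKO effects of the lines on Slc1a5 differed by -0.31 (log2, SE 0.20, adjusted p = 1.00, edgeR). This test of the difference called 1 of 19465 genes, 0.00514%, and none of the 4 members tested.

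**Figure D3:**
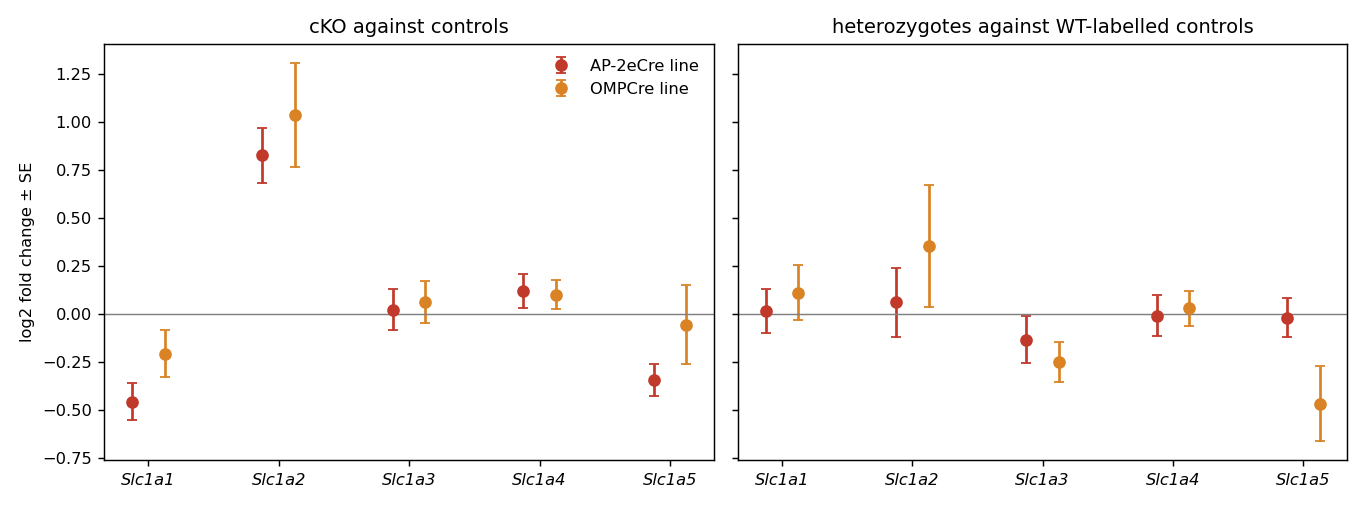
Log2 fold changes of the Slc1a genes with their standard errors (vertical axis) for cKO against the 6 controls (left) and heterozygotes against WT-labelled controls (right), with colors for the AP-2εCre and OMPCre lines. Slc1a2 lies at 0.83 and 1.04 on the left and at 0.06 and 0.35 on the right.

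Reads of Slc1a5 were spread over several transcripts. Slc1a5-201, its only coding transcript, held 19.9% to 67.8% of the gene's counts. Slc1a5-202, which retains an intron, held 12.4% to 54.0%, and Slc1a5-204, a short processed transcript, held 11.1% to 24.8%. The 6 markers of sustentacular cells, the supporting cells of the epithelium (Cyp2a5, Cyp2g1, Cbr2, Ermn, Ugt2a1 and Sec14l3), summed to 1517 to 2295 CPM in the AP-2εCre cKO and 1995 to 4315 CPM in its controls. They summed to 2816, 2552 and 1192 CPM in the WT-labelled OMPCre libraries, in the order of Slc1a5 there. In 4 of 6 groups (the 3 OMPCre groups and the AP-2εCre heterozygotes) the libraries stood in the same order by this sum and by Slc1a5, and in the WT-labelled and cKO groups of the AP-2εCre line they did not. The OMPCre heterozygotes differed little in Slc1a5, at 55.7 to 57.2 CPM. A sum of 4 markers of ciliated epithelium followed the order of Slc1a5 in the 3 OMPCre groups too. In each of these groups replicate 3 was lowest by Slc1a5 and by both sums, so the order does not single out sustentacular cells. The gland markers, 4 of a list of 5 that were found in the files, summed to 48319 to 81264 CPM in the AP-2εCre cKO and 80347 to 170561 CPM in its controls. DESeq2 called 2 of these 4 lower, Lcn4 (log2 fold change -1.22, adjusted p = 1.95e-06) and Lcn3 (-0.71, adjusted p = 0.00206), while edgeR called neither (adjusted p = 0.249 and 0.308). Over all genes tested in this contrast DESeq2 called 1.67% and edgeR 0.0378%. The 4 markers of ciliated epithelium summed to 105 to 235 CPM against 198 to 262 CPM. Each of the 6 sustentacular, 4 gland and 4 ciliated markers had a lower mean in that cKO than in controls, in the same libraries in which Slc1a1 was lower too. In the OMPCre cKO, where Slc1a5 lay within the range of its controls, 5 of 6 sustentacular and 4 of 4 ciliated markers were lower too. Their median log2 fold changes were -0.26 and -0.10 there, against -0.25 and -0.45 in the AP-2εCre cKO. Of the 4 gland markers 3 were higher in the OMPCre cKO. The part of these cells in the levels of Slc1a5 and Slc1a1 was not tested.

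**Figure D4:**
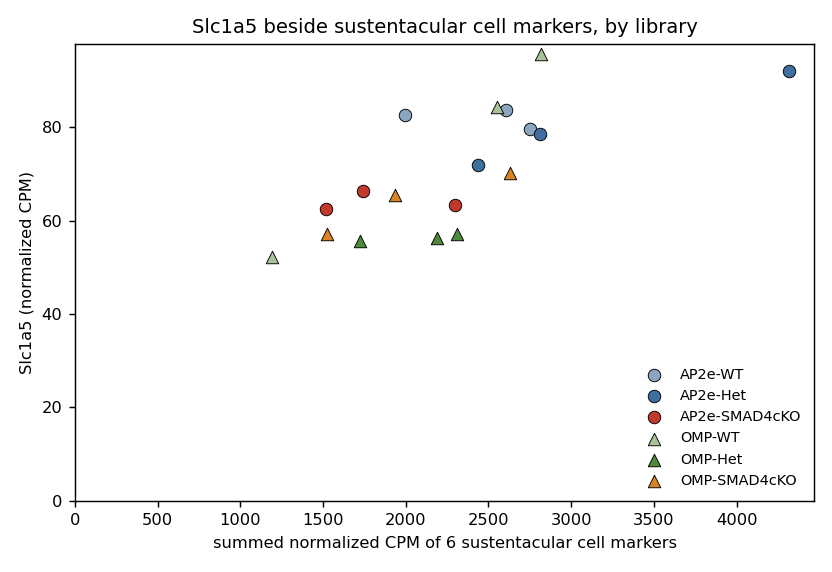
Slc1a5 (vertical axis, normalized CPM) against the summed CPM of 6 sustentacular cell markers (horizontal axis) in the 18 libraries, with circles for the AP-2εCre and triangles for the OMPCre line. The AP-2εCre cKO libraries lie at 62.4 to 66.4 CPM of Slc1a5, and the lowest library, at 52.2 CPM, has the lowest marker sum, 1192 CPM, while the OMPCre heterozygotes lie at 55.7 to 57.2 CPM with sums of 1721 to 2311 CPM.

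Levels between genes were compared per length in the 12 control libraries of both lines. By TPM summed per gene the order was Slc1a5 at 63.8 ± 11.3 TPM (SD, n = 12), Slc1a4 at 17.4 ± 3.46 TPM, Slc1a3 at 4.56 ± 0.92 TPM, Slc1a1 at 3.88 ± 0.93 TPM and Slc1a2 at 2.18 ± 1.41 TPM. The amino acid exchangers had the highest levels. Slc1a5 exceeded Slc1a4 in 12 of 12 libraries, by a mean log2 ratio of 1.88, and Slc1a4 exceeded Slc1a3 in 12 of 12, by 1.93 (each adjusted p = 0.00098 over 4 pairs, exact sign-flip permutation test, two-sided). Slc1a1 exceeded Slc1a2 in 10 of 12 libraries, by 1.19 (adjusted p = 0.0059, same exact test). Slc1a3 and Slc1a1 did not differ beyond their spread, with a mean log2 ratio of 0.25 (SD 0.54, adjusted p = 0.11, same exact test).

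The distance of Slc1a2 from the other members depended on the scale. As CPM per kilobase of the most abundant transcript, Slc1a2 had 0.453 ± 0.087 (SD, n = 12), Slc1a1 3.88 ± 0.49 and Slc1a3 3.74 ± 0.43. Slc1a1 then exceeded Slc1a2 in 12 of 12 libraries, by a log2 ratio of 3.11. Slc1a5 exceeded Slc1a4 by only 0.41 on this scale, in 10 of 12 libraries (26.8 ± 5.49 against 19.8 ± 1.21). The ratio of Slc1a3 to Slc1a1 changed sign, to -0.05.

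The order of the exchangers turned when coding transcripts alone were added, a comparison chosen after seeing the data. Slc1a5-201 held 6.34% to 26.9% of the TPM of its gene in the 18 libraries, and the short non-coding Slc1a5-204 held 33.7% to 60.5%. Coding transcripts gave 10.6 ± 3.38 TPM (SD, n = 12) for Slc1a5 and 17.4 ± 3.46 TPM for Slc1a4. Slc1a5 was then below Slc1a4 in all 12 controls, by a mean log2 ratio of -0.76 (adjusted p = 0.00065 over 4 pairs, exact sign-flip permutation test). Slc1a2 stayed lowest, at 0.978 ± 0.777 TPM.

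**Figure D5:**
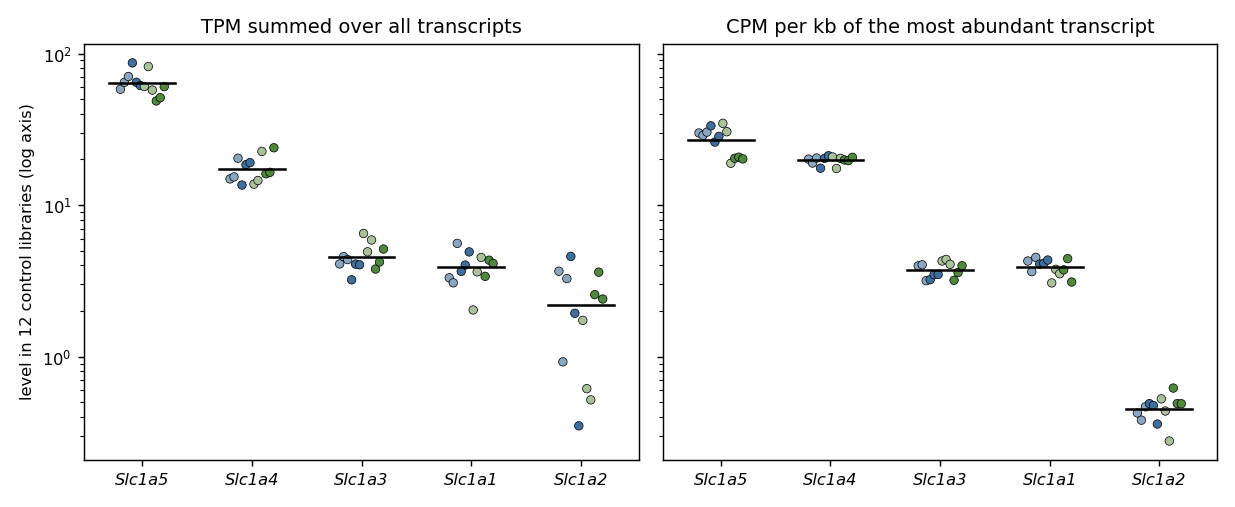
Levels of the Slc1a genes in the 12 control libraries on a log axis, as TPM summed over transcripts (left) and as CPM per kilobase of the most abundant transcript (right), with lines at the means and colors for the 4 control groups. Slc1a2 averages 2.18 TPM on the left and 0.453 CPM per kilobase on the right, the lowest of the members on both scales.

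Genes that make, move or release glutamate and glutamine were counted as a list of 18. In the AP-2εCre cKO 17 were tested, 7 with a higher and 10 with a lower mean, and none was called in either direction by edgeR or DESeq2. Their median log2 fold change was -0.01, against 0.00 for all genes tested. In the OMPCre cKO 18 were tested, 9 higher and 9 lower, again with none called and a median of -0.01 against 0.00. The 4 most abundant were Glul, the glutamine synthetase of glia, Slc38a2 and Slc38a1, which import glutamine, and Slc3a2, the partner chain of amino acid exchangers. Glul had 225 CPM in the AP-2εCre cKO and 263 CPM in its controls (log2 fold change -0.23, SE 0.15, adjusted p = 0.677, edgeR). With OMPCre it had 258 CPM against 248 CPM (0.06, SE 0.12). Slc38a2 had 162 against 169 CPM and 168 against 187 CPM in the 2 lines, Slc38a1 123 against 128 CPM and 151 against 142 CPM, and Slc3a2 109 against 127 CPM and 123 against 132 CPM.

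Of 13 glutamate receptor genes 12 were tested. In the AP-2εCre cKO 8 had a higher and 4 a lower mean, with a median log2 fold change of 0.18. In the OMPCre cKO 9 had a higher and 3 a lower mean, also with a median of 0.18. None was called by edgeR or DESeq2 in either line. The most abundant were Grik5, a kainate receptor subunit at 19.0 against 16.6 CPM and 16.1 against 16.0 CPM, and Gria3, an AMPA receptor subunit at 14.1 against 13.9 CPM and 17.1 against 14.5 CPM. They were followed by Grin2a, an NMDA receptor subunit at 6.78 against 4.78 CPM and 5.83 against 4.95 CPM, and Gria4 at 4.98 against 4.27 CPM and 3.67 against 3.40 CPM.

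The genes around Slc1a2 on chromosome 2 were not called. The 10 nearest genes that passed the filter, 5 on each side and up to 757013 bases away, had median log2 fold changes of 0.03 (AP-2εCre cKO) and -0.05 (OMPCre cKO). By edgeR 0 of 10 passed in each line, with 2 and 0 at an unadjusted p under 0.05 against 10.2% and 3.95% of all genes tested, and cKO and controls overlapped for all 10 in both lines. The nearest on each side were Pamr1, 15618 bases before Slc1a2 (log2 fold changes -0.18 and -0.06), and Cd44, 20357 bases after it (0.20 and -0.11). The 2 with an unadjusted p under 0.05 were Ehf and Elf5, transcription factors of epithelia, at -0.49 and -0.64 in the AP-2εCre line.

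The genes most like Slc1a2 were found by Pearson's r of log2(CPM + 1) over the 18 libraries among 15837 genes with a mean of at least 1 CPM. They were Unc13c (r = 0.835), which primes synaptic vesicles, Homer2 (0.818), a scaffold of metabotropic glutamate receptors, Mslnl (0.806), Pitpnc1 (0.805) and Gcnt2 (0.794), a glycan-branching enzyme. These libraries include the cKO that Slc1a2 was chosen on, so the values are a description. Homer2 had a mean of 162 CPM in the AP-2εCre cKO and 189 CPM in the OMPCre cKO, against group means of 113 to 160 CPM in the controls. Over the 12 controls alone the closest genes were Lrrc18 (0.875), Cc2d2a, Scaf4, Ccdc15 and Cyp2u1, and none of the first 5 was among them. Within the family r with Slc1a2 over 18 libraries was -0.563 for Slc1a1, 0.0617 for Slc1a3, 0.491 for Slc1a4 and -0.276 for Slc1a5.

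The libraries carry names of different form in the deposited data, with a letter and number or with the line and number, and each cKO group holds 2 of the first and 1 of the second. Within the letter-named libraries the log2 difference of Slc1a2 between cKO and controls was 0.89 in the AP-2εCre line and 0.52 in the OMPCre line, each 2 against 4 libraries. Within the line-named libraries, 1 against 2, it was 0.69 and 1.96, the last resting on the cKO library with 16.7 CPM. For Slc1a1 the differences in the AP-2εCre line were -0.36 and -0.67, and for Slc1a5 -0.33 and -0.38. What the names stand for is not given in the sources used here.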

How the data were processed

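RNA-seq of whole VNOs was analysed in 18 libraries, 3 in each of 6 groups taken from the sample labels. A further library, titled as a heterozygote and labelled with a cKO genotype, was left out of all comparisons. Per the study's methods the authors prepared stranded polyA+ libraries, sequenced single reads and quantified them with Salmon 0.14.0, and their submission notes also name DESeq2 1.22.2 and the builds mm10 and GRCm38. The deposited values are estimated counts per transcript, not normalized and not always whole. The authors' files also hold TPM, scaled to 1000000 per library. Each file lists 116248 transcripts, of which 116072 matched GENCODE vM21. The other 176 held at most 0.0324% of counts and were dropped.

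Per gene (35596 genes) the estimated counts were summed and rounded. The main test was the quasi-likelihood test of edgeR 4.0.16 (R 4.3.3) with TMM, filterByExpr and Benjamini-Hochberg adjustment over all genes tested, called at an adjusted p under 0.05, and it was tested on simulated data. DESeq2 1.42.0 was an alternative. Each cKO group of 3 was set against both control groups of its line together. Permutation tests were exact and two-sided (84 splits, or 20 with a smallest p of 0.1), with the smaller tail doubled. CPM are TMM-normalized. The members and lists were chosen with earlier results of these data known. Genes named are the members, genes of the 2 glutamate lists that were called or among the 4 most abundant, the 5 most correlated with Slc1a2 and its 5 neighbours on each side. Tfap2e, Omp, Smad4 and the marker lists were named as checks, and single markers after their values were seen. Sequences are from GENCODE vM21. Alternatives were the tool, the scaling, the filter, the way transcripts are added, the replicate number as a block, the form of the library name, the kind of control, all 18 libraries in 1 fit and leaving out each library.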

Additional observations from a re-analysis of the deposited data

Results flagged for a closer look

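The library whose labels conflict, titled as an AP-2εCre heterozygote and labelled with a cKO genotype, entered no comparison. It had 6.72 CPM of Slc1a2, above the highest of the 6 AP-2εCre controls (5.69 CPM when all 19 libraries were normalized together) and below the lowest of the 3 cKO libraries (7.67 CPM). Its Slc1a3, 17.2 CPM, was also above the highest control, 16.8 CPM. Groups of 3 libraries were too small to look for outlying libraries by a rule.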

How the results depend on the processing

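Direction and side of the threshold (for counts and untested values, the size) held for 203 of 253 alternative values that left out no library, and 13 changed sign. With 1 library left out 242 of 288 held and 25 changed sign. Genes called in the AP-2εCre cKO numbered 7, against 309 with DESeq2, 4 with counts from length-scaled TPM, 2 with library-name series as covariate, 24 with WT-labelled controls alone, 16 with all 18 libraries in 1 fit and 2 to 8 with a library left out. In the OMPCre cKO 0 became 42 with DESeq2, 1 with the name covariate, 11 with heterozygous controls alone, 15 with all 18 libraries and 0 to 2 with a library left out. Between AP-2εCre heterozygotes and WT-labelled controls 9 became 123 with DESeq2, 14 with a filter of at least 1 count, 5 with length-scaled TPM, 5 with the name covariate, 33 with all 18 libraries and 3 to 21 with a library left out. In the OMPCre line 14 became 155 with DESeq2, 9 with all 18 libraries and 6 to 19. For the difference between the lines 1 became 50 with DESeq2, 2 with at least 1 count, 2 with the name covariate and 0 to 5.

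Slc1a1 (-0.46) and Slc1a5 (-0.35) passed with DESeq2 in the AP-2εCre cKO. Length-scaled TPM moved Slc1a2 to 0.44 (AP-2εCre), 2.05 (OMPCre) and -1.75 (difference of the lines). With a library left out Slc1a2 ranged from 0.64 to 1.25 in the OMPCre cKO and from -0.44 to 0.17 for the difference. Values near 0 changed sign. Slc1a3 went to -0.065 and -0.13 in the 2 cKO comparisons and 0.044 for the difference with length-scaled TPM, to -0.051 and -0.056 with WT-labelled controls alone, and ranged from -0.039 to 0.093 (AP-2εCre cKO) and -0.10 to 0.019 (difference) with a library left out. Slc1a5 in the OMPCre cKO was 0.19 with heterozygous controls alone and -0.13 to 0.074 with a library left out. Between AP-2εCre heterozygotes and WT-labelled controls length-scaled TPM gave -0.12 for Slc1a2, 0.027 for Slc1a4 and 0.17 for Slc1a5, and leaving out a library gave -0.077 to 0.085 for Slc1a1, -0.028 to 0.19 for Slc1a2, -0.067 to 0.061 for Slc1a4 and -0.13 to 0.052 for Slc1a5. In the OMPCre line it gave -0.020 to 0.24 for Slc1a1 and -0.051 to 0.085 for Slc1a4. For the difference Slc1a4 was -0.0054 with length-scaled TPM and -0.072 to 0.087. The log2 ratio of Slc1a3 to Slc1a1 was -0.054 per kilobase, -0.0018 in the 6 heterozygotes and 0.50 in the 6 WT-labelled libraries. With coding transcripts alone, chosen after seeing the data, that of Slc1a5 to Slc1a4 was -0.76. With 6 libraries of 1 kind no ratio passed (lowest adjusted p 0.0625, exact permutation test, where a single pair cannot go below 0.03125 unadjusted). The others were 1.97, 1.74 and 1.38 in the WT-labelled and 1.79, 2.13 and 1.00 in the heterozygous libraries. Median shares by counts were 90.8% (Slc1a2-202), 91.7% (Slc1a3-201) and 44.9% (Slc1a5-201), against 17.5%, 68.0% and 16.9% by TPM. The cause of these changes was not tested.

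The replicate numbers were not taken as a pairing, since not every same-numbered pair correlated. Deviations of same-numbered libraries correlated at -0.05 on average (-0.18 to 0.15) in the AP-2εCre line and at 0.11 (-0.03 to 0.29) in the OMPCre line, against 0.03 and -0.06 for other pairs, and 2 of 9 and 7 of 9 libraries correlated best with one of their own number. The replicate 3 libraries of the OMPCre line are the line-named ones, and they had the lowest sustentacular, gland, ciliated and endothelial sums and the lowest Slc1a5 of their group in 3 of 3 groups. With the replicate number as a block 2 genes were called in the AP-2εCre cKO, 0 in the OMPCre cKO, 3 and 7 between the controls of the AP-2εCre and OMPCre lines and 0 for the difference, and no call on a member changed.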

Other observations

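In the library whose labels conflict, the other members had 16.7 CPM for Slc1a1, 82.0 CPM for Slc1a4 and 73.6 CPM for Slc1a5, from 838, 4115 and 3692 estimated counts. Slc1a1 and Slc1a5 were within the range of the 6 AP-2εCre controls (13.8 to 17.2 CPM and 72.0 to 92.2 CPM) and above the 3 cKO libraries (10.6 to 12.3 CPM and 62.5 to 66.5 CPM).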
